A study of Homo sapiens with 4 samples.

Results

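Circular RNAs (circRNAs) of matrix, integrin and adhesion genes were followed through exosomes of pancreatic cancer cells. A circRNA was taken when its host, the gene it lies in, was a collagen, laminin, integrin, ADAM or ADAMTS, cadherin, protocadherin, lysyl hydroxylase or catenin by the start of its symbol, or was FN1, VCAN, HSPG2, FBN1, LTBP1, AGRN, PTK2, VCL or TLN1. It also had to be annotated as exonic, intronic or sense overlapping and to have at least 1 junction read in the 4 libraries. This gave 65 members at 35 hosts among 9405 circRNAs with a read. The irradiated group was 2 libraries, B1 and B2, from exosomes of cells given 10 Gy of X-ray, a dose used to make dying tumor cells. The control group was 2 libraries, A1 and A2, from exosomes of cells without irradiation. Each sample is labelled with all of PANC-1, SW1990, MIA PaCa-2 and BxPC-3, established human pancreatic cancer lines, and which of them gave which library is unknown. Pairs of values run B1, B2 for irradiated and A1, A2 for control libraries. The deposited column B2 may not be the study's second irradiated library. With a read it held 1861 circRNAs, fewer than the study's sequencing summary lists for that library, while 3492 (B1), 2052 (A1) and 2485 (A2) are the listed numbers, off by 1 for B1. Every B2 value below carries this doubt, and the main results are also given for B1 alone. All were kept in medium with exosome-depleted serum. A junction read is a sequencing read that crosses the point where the end of a circle is joined back to its start, and it is counted here with no normalization. Nothing says that the replicates were separate cultures, so p-values measure the spread between these samples, which may be technical.

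Collagens and laminins build the fibres and sheets of the extracellular matrix, and lysyl hydroxylases modify collagen lysines so that the fibres can be crosslinked. Integrins are paired receptors that hold cells to the matrix, and vinculin and focal adhesion kinase act on their inner side. Cadherins and protocadherins join cells to each other, and ADAM and ADAMTS proteins include proteases that cut surface and matrix proteins. Pancreatic ductal cancer is known for its dense matrix. A circRNA forms when a downstream splice site is joined to an upstream one, so a circle of exons carries the splice signals AG before its first base and GT after its last base in the genome. Such a circle is not a measure of the host's protein or linear RNA.

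The libraries held 15150 (B1) and 5756 (B2) junction reads of irradiated exosomes, and 6544 (A1) and 8094 (A2) of control exosomes. Exonic circRNAs of any gene took 66.5% of the reads of B1 and 35.9% of those of B2, against 0.0458% (3 reads) in A1 and 0.0494% (4 reads) in A2. The control libraries thus held almost no exonic circle of any host, member or not. On lists of marker genes, 3 of 14 epithelial and pancreatic ductal cancer markers (EPCAM, GRHL2 and MUC16) had a read, with 2 and 3 reads in irradiated libraries, against 5 and 2 in controls. For fibroblasts and stroma it was 1 of 12 (COL3A1), for endothelium 0 of 5, for blood cells and plasma 2 of 13 (ITGAM and PTPRC) and for neurons 3 of 6 (GRIN2A, RBFOX1 and SYN1). ITGAM and COL3A1 are also members. At these depths the marker hosts neither bear out nor contradict the labelled tissue.

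The exonic members joined annotated exons, as nearly all exonic circRNAs of the table did. Their junctions are shown because the junction is the sequence that a read had to cross. All 29 had AG before and GT after the circle on the listed strand of hg19, and both ends lay at annotated exon ends. Of the 2538 other exonic circRNAs, 2538 had the motif and 2528 (99.6%) had both ends at exon ends. Ends at exons come with the exonic category by which these members were taken, and the motif was general in it. Neither is therefore a result about the members. In the following lines the last 20 bases of the circle are in lower case and the first 20 bases, to which they are joined, are in capitals.
PLOD2 exons 2 to 3, chr3:145838899-145842016, minus strand, hsa_circ_0122319: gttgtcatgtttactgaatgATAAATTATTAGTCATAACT
ITGAL exons 12 to 15, chr16:30505533-30507887, plus strand: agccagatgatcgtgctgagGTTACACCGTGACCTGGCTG
ITGA7 exon 4, chr12:56094683-56094938, minus strand, hsa_circ_0026782: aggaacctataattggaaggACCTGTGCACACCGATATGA
ADAMTSL3 exons 3 to 4, chr15:84373141-84442402, plus strand, hsa_circ_0104740: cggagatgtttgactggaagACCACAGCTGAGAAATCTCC
ADAMTSL3 exons 18 to 19, chr15:84611348-84611834, plus strand, hsa_circ_0104769: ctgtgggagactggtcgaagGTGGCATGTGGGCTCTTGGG
CDH11 exons 2 to 3, chr16:65038545-65087831, minus strand, hsa_circ_0105720: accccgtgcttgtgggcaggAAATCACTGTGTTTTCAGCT
LAMA1 exons 42 to 46, chr18:6974902-6980636, minus strand, hsa_circ_0108861: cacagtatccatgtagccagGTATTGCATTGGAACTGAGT
ITGB8 exons 6 to 12, chr7:20421350-20445794, plus strand, hsa_circ_0079543: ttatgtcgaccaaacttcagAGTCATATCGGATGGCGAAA
VCL exons 3 to 6, chr10:75830428-75834661, plus strand, hsa_circ_0018881: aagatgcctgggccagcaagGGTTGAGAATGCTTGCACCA
ITGAM exons 13 to 14, chr16:31308835-31309275, plus strand, hsa_circ_0000692: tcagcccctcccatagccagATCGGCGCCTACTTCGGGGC

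The ITGA7 circle is 1 exon of 256 bases, all coding, and is short enough to be given whole. Its first 20 and last 20 bases, which meet at the junction, are in capitals.
ITGA7 circle: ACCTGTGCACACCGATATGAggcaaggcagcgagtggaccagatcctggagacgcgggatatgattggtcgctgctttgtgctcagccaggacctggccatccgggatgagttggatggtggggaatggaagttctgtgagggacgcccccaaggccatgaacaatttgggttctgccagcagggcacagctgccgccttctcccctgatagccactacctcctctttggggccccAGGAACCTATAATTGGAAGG

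The intronic and sense overlapping members looked different at the same place. Of 26 intronic members, 15 had AG and GT on the listed strand and 11 (42.3%) only on the opposite strand, and 815 of 1843 other intronic circRNAs of nuclear chromosomes (44.2%) had it on the opposite strand too. Of 10 sense overlapping members, 6 had it on the listed and 4 on the opposite strand. In 16 of 26 intronic members (61.5%, others 53.1%) and in 8 of 10 sense overlapping members (80%, others 37.6%), 5 or more bases were identical around both ends, so that the joint cannot be placed to the base. For exonic members it was 2 of 29 (6.9%, others 6.26%). The next lines give the genome around both ends for the most read of these members, with the motif bases, or the bases standing in their place, in capitals.
HSPG2 intron 9, chr1:22212288-22213055, minus strand, start: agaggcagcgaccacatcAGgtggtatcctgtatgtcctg
HSPG2 intron 9, end: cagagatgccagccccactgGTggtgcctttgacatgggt
CDH23 intron 14, chr10:73433710-73434815, plus strand, start: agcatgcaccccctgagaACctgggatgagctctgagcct
CDH23 intron 14, end: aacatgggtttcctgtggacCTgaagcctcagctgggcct
LAMA1 exons 61 to 62 and introns, chr18:6942775-6947428, minus strand, start: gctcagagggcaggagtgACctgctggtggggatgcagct
LAMA1 exons 61 to 62 and introns, end: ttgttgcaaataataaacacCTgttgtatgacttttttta
PLOD2 exon 8 of a further transcript, chr3:145809587-145809883, minus strand, start: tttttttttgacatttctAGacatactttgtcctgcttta
PLOD2 exon 8 of a further transcript, end: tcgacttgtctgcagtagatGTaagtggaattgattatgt
The HSPG2 ends share 6 identical bases and the CDH23 and LAMA1 ends 5 each, and at CDH23 and LAMA1 AC and CT stand there, which is the motif read on the other strand. The PLOD2 circle shares none. It is listed as sense overlapping, but both its ends match 1 exon of 297 bases in the annotated transcript ENST00000703521.

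Read counts per member were low. Members had between 2 and 12 reads, with a median of 3, which was also the median of all circRNAs with a read. Exactly 2 reads were seen for 19 members, 3 or 4 reads for 25 and 5 or more for 21. Of the 65 members, 61 (93.8%) were read in a single library, as were 95.2% of all circRNAs, and 4 were read in both irradiated libraries. No member was read in both groups. The irradiated libraries alone held 40 members (61.5%), against 53% of all circRNAs, and the control libraries alone held 25 members (38.5%), against 46.5% of all circRNAs. Most of this separation is therefore the background of the table, in which 47 of 9405 circRNAs were read in both groups. The samples are bulk exosomal RNA, in which fewer cells or exosomes carrying a circle and fewer copies in each cannot be told apart.

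The members split by category between the groups. Exonic members had 122 and 31 junction reads in irradiated libraries, against 0 and 0 in controls. Intronic members had 7 and 6 reads in irradiated libraries, against 26 and 39 in controls. Sense overlapping members had 10 and 12 reads in irradiated libraries, against 0 and 15 in controls. So the exonic and intronic counts did not overlap between the groups and ran in opposite directions, and the sense overlapping counts overlapped. All 29 exonic members were read in irradiated libraries only, as were 99.7% of other exonic circRNAs. Of 26 intronic members 21 (80.8%) were read in control libraries only, against 64.7% of other intronic circRNAs.

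**Figure D1:**
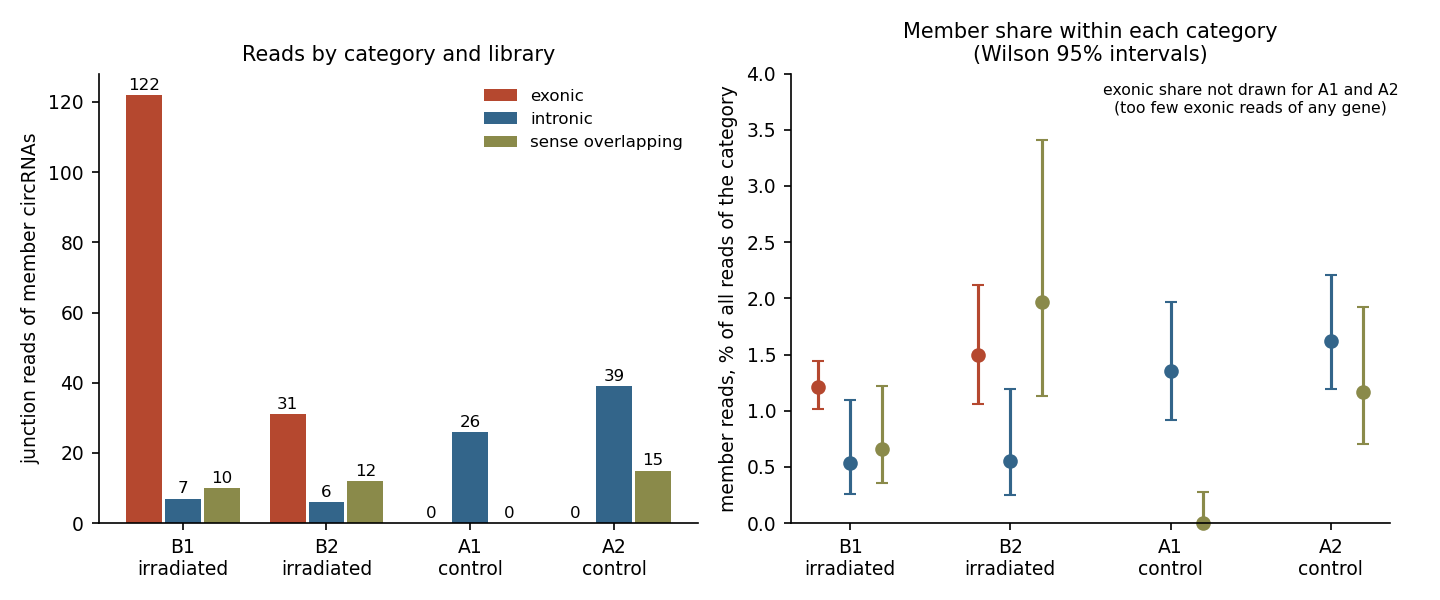
Left, junction reads of member circRNAs in each library (irradiated B1 and B2, control A1 and A2) by category. Right, member reads as a percentage of all reads of the same category, with Wilson 95% intervals. Exonic member reads (122 and 31) stood in irradiated libraries and intronic ones mostly in control libraries (26 and 39), and the member share of exonic reads was 1.21% and 1.5%.

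As a share of all junction reads, members took 0.917% of B1 (Wilson 95% interval 0.778 to 1.08) and 0.851% of B2 (0.645 to 1.12), against 0.397% of A1 (0.271 to 0.582) and 0.667% of A2 (0.512 to 0.869). Both irradiated libraries were higher than both control libraries. The mean was 0.884 ± 0.0468% in irradiated and 0.532 ± 0.191% in control libraries (SD, n = 2 each), a difference of 0.352 percentage points (exact permutation test, two-sided, p = 0.33). With 2 against 2 libraries 0.33 is the smallest p that can be had, and intervals cover counting error only. The difference was 0.217 without A1 and 0.385 without B2. Exonic members alone took 0.805% of B1 and 0.539% of B2, against 0% in both controls, where 3 reads would be 0.0458% of A1 and 0.0371% of A2. Intronic and sense overlapping members together took 0.112% of B1 and 0.313% of B2, against 0.397% of A1 and 0.667% of A2. Their difference was -0.32 percentage points (exact permutation test, two-sided, p = 0.33). It was -0.185 without A2 and -0.42 without B2. Over the whole table, intronic circRNAs took 8.61% and 19% of junction reads in irradiated libraries, against 29.5% and 29.7% in controls. Sense overlapping circRNAs took 9.95% and 10.6%, against 21% and 15.9%. Both categories were thus lower in irradiated libraries whatever the host.

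Set against their own category, members were a steady part of the exonic reads. They made up 1.21% (95% interval 1.02 to 1.44) of the exonic reads of B1 and 1.5% (1.06 to 2.12) of those of B2, so the 2 irradiated libraries did not differ beyond counting error. The 3 and 4 exonic reads of A1 and A2 allow no comparison. Of all intronic reads, members made up 0.536% and 0.55% in irradiated libraries, against 1.35% and 1.62% in controls. The intervals of B1 (0.26 to 1.1) and B2 (0.252 to 1.19) overlapped with that of A1 (0.921 to 1.97), while that of A2 began at 1.19, above the interval of B1 and at the end of that of B2. For sense overlapping reads the shares were 0.663% and 1.97% in irradiated libraries, against 0% (upper limit 0.279%) and 1.17% in controls, and both groups overlapped.

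Focal adhesion hosts had the most reads of any role. PTK2 encodes focal adhesion kinase, a kinase that integrins activate at the sites where a cell grips the matrix. It lies on chromosome 8 and had 13 member circles. Its 12 exonic circles had 61 and 14 reads in irradiated libraries, against 0 and 0 in controls, and all 12 are listed in circBase, a catalogue of published circRNAs. Its single intronic circle had 3 reads in A2 and none elsewhere. Against a floor of 3 counts over the control group, the exonic circles were at least 17.5-fold higher per junction read in irradiated libraries. Exonic circRNAs other than members were higher too, with a ratio per junction read of 1200 (exact binomial 95% interval 581 to 2980, counting error only). The bound therefore does not set PTK2 apart from its category. PTK2 gave 0.606% (95% interval 0.472 to 0.777) of the exonic reads of B1 and 0.678% (0.404 to 1.13) of those of B2, so its part in the exonic reads was alike in both irradiated libraries within counting error. Of 1800 hosts with an exonic circle in these 2 libraries, none had more different exonic circles than PTK2, 1 had more exonic reads, and the median host had 1 circle.

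The PTK2 circles clustered at the start of the gene. On the annotated transcript ENST00000696786 with 36 exons, 11 of the 12 lay within exons 3 to 14. Exon 3 was the first exon of 6 circles with 41 and 8 reads in B1 and B2, and exon 5 was the first exon of 3 circles with 13 and 1 reads. Exons 7, 8, 10 and 12 each closed 2 circles with different first exons. Exon 3 holds the start of the coding sequence, and each of the 6 circles that begin there carries 32 bases ahead of it. The circles were 231 to 1125 bases long and held 2 to 10 exons. They overlap in sequence, but each read was assigned by its own junction.

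**Figure D2:**
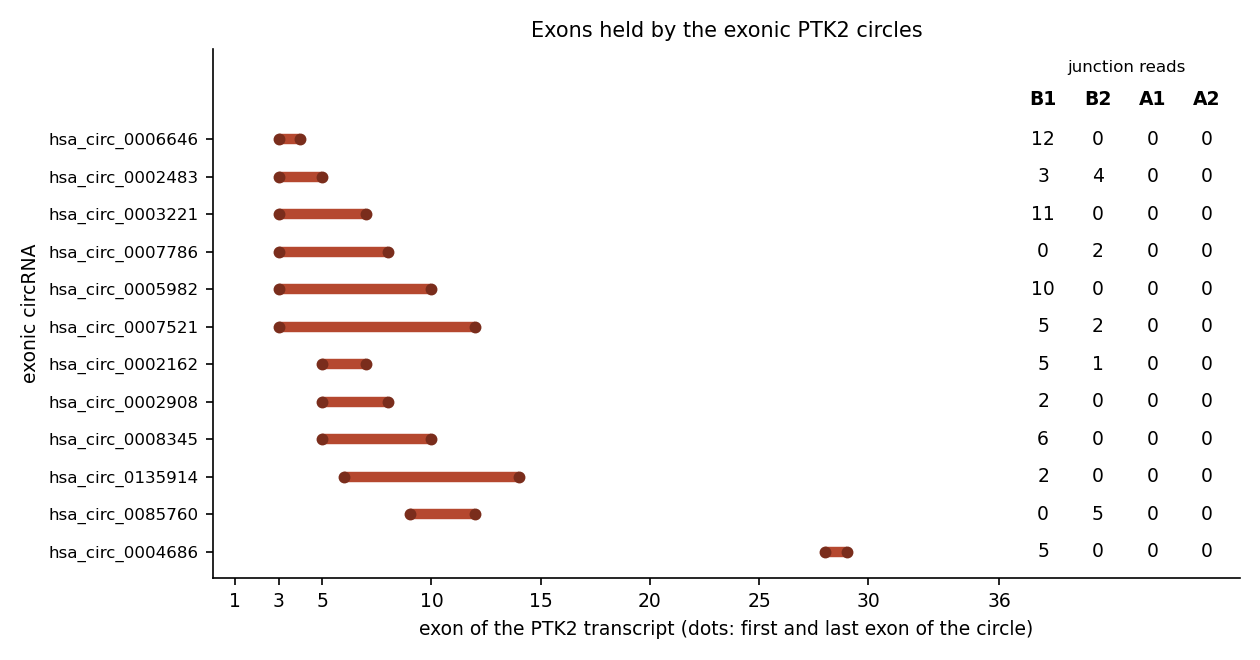
Exons of the PTK2 transcript held by each of its 12 exonic circRNAs, from the first to the last exon (dots), with the junction reads of irradiated libraries B1 and B2 and control libraries A1 and A2 at the right. Of them 6 begin at exon 3 and 3 at exon 5, and no circle had a read in A1 or A2.

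The most read PTK2 circle, hsa_circ_0006646 (exons 3 to 4, chr8:141889570-141900868), had 12 and 0 reads in irradiated libraries, against 0 and 0 in controls. hsa_circ_0003221 (exons 3 to 7) had 11 and 0 reads in irradiated libraries, against 0 and 0 in controls. hsa_circ_0005982 (exons 3 to 10) had 10 and 0 reads in irradiated libraries, against 0 and 0 in controls. These 3 circles were read in B1 alone. Another 3 were read in both irradiated libraries. hsa_circ_0007521 (exons 3 to 12) had 5 and 2 reads in irradiated libraries, against 0 and 0 in controls. hsa_circ_0002483 (exons 3 to 5) had 3 and 4 reads, against 0 and 0. hsa_circ_0002162 (exons 5 to 7) had 5 and 1 reads, against 0 and 0. Of all 3, hsa_circ_0002483 alone had more reads in B2, the shallower library, than in B1. In B2 alone, hsa_circ_0085760 (exons 9 to 12) had 5 reads. In B1 alone, hsa_circ_0008345 (exons 5 to 10) had 6 reads and hsa_circ_0004686 (exons 28 to 29) had 5 reads. VCL encodes vinculin, which ties talin to actin at adhesions, and its circle of exons 3 to 6 (544 bases) had 3 reads in B2 and none in the other libraries.

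Lysyl hydroxylase circles were read in irradiated libraries only. PLOD2 encodes the lysyl hydroxylase of collagen telopeptides. Its 3 circles had 12 and 6 reads in irradiated libraries, against 0 and 0 in controls, at least 4.2-fold higher per junction read against the floor of 3 counts. Of these circles 2 are exonic, a category in which circRNAs other than members were higher too, as given above. The circle of exons 2 to 3 (hsa_circ_0122319, 229 bases) had 9 and 1 reads in B1 and B2. The circle of exons 3 to 7, which is not in circBase, had 3 reads in B1, and the single-exon circle shown above had 5 reads in B2. All 3 circles thus came from different junctions, and only the first was read in both irradiated libraries. PLOD1, which hydroxylates lysines of the collagen helix, had 3 reads in B1 and none in the other libraries, from a circle of exons 6 to 9.

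Integrin subunit circles were mostly exonic in irradiated libraries. The 6 exonic circles had 24 and 5 reads in irradiated libraries, against 0 and 0 in controls, and the 4 others had 0 and 2 reads in irradiated libraries, against 5 and 4 in controls. Of exonic circRNAs other than members, 99.7% were read in irradiated libraries only, so the place of the exonic circles does not set integrins apart. ITGAL, the alpha chain of the leukocyte integrin LFA-1, had 3 circles with 11 and 2 reads in irradiated libraries, against 0 and 0 in controls. Of these, exons 12 to 15 (619 bases, not in circBase) had 9 reads in B1. ITGA7, a laminin receptor of muscle, had 8 reads in B1 and none in the others. ITGB8, which pairs with the alpha V subunit and binds latent TGF-beta, had 5 reads in B2 and none in the others. ITGAM, the alpha chain of the myeloid integrin Mac-1, had an exonic circle with 3 reads in B1 and a sense overlapping circle with 4 reads in A2. ITGAL and ITGAM are known as leukocyte genes, while PTPRC, the general leukocyte marker, had 0 and 0 reads in irradiated libraries, against 0 and 2 in controls. The part of other cells in these reads was not tested.

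Matrix proteins themselves gave few exonic circles. The 9 collagen circles were all intronic or sense overlapping, with 8 and 8 reads in irradiated libraries, against 2 and 12 in controls, and the groups overlapped. Their ratio per junction read was 0.8 (exact binomial 95% interval 0.366 to 1.77, counting error only). COL4A1, a chain of basement membrane collagen, had 2 sense overlapping circles with 4 reads each in B1 and an intronic circle with 4 reads in A2. COL22A1, a collagen of tissue junctions, had 3 circles with 0 and 0 reads in irradiated libraries, against 2 and 6 in controls. COL3A1, a fibrillar collagen, had 4 reads in B2 from a circle that is annotated as intronic but spans exons 39 and 40 of its main transcript. COL7A1, the collagen of anchoring fibrils, had 4 reads in B2 from a sense overlapping circle with the splice motif on the opposite strand.

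LAMA1 encodes the alpha-1 chain of laminin in basement membranes, and it was the only laminin with a member. Its 4 circles had 3 and 8 reads in irradiated libraries, against 0 and 6 in controls, and the groups overlapped. The reads of B2 came from 2 exonic circles, exons 42 to 46 with 5 reads and exons 6 to 16 with 3 reads. The other 2 circles, an intronic one with 3 reads in B1 and the sense overlapping one with 6 reads in A2, had their splice motif on the opposite strand. HSPG2, which encodes the basement membrane proteoglycan perlecan, had 7 reads in A2 and none in the other libraries, from the intronic circle shown above. Other matrix genes taken by name had no member, namely FN1, VCAN, FBN1, LTBP1 and AGRN, and neither did TLN1 or any catenin.

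ADAM and ADAMTS hosts were read mainly in B1. ADAMTSL3, an ADAMTS-like matrix glycoprotein without a protease domain, had 2 exonic circles with 6 and 4 reads in B1 and none in the other libraries. ADAM32 had an exonic circle of 10 exons with 5 reads in B1 and none in the others. The remaining 5 circles of both families were intronic or sense overlapping with 2 reads each, 3 of them in B1, 1 in A1 and 1 in A2. All of the 10 exonic ADAMTS reads came from 1 host in 1 library.

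Cadherins and protocadherins stood mostly in control libraries. Cadherin circles had 5 and 0 reads in irradiated libraries, against 15 and 11 in controls, and did not overlap between groups. Intronic circRNAs other than members did not overlap either, with 1298 and 1085 reads in irradiated libraries, against 1903 and 2367 in controls. The 5 reads in B1 were the only exonic cadherin circle, CDH11 exons 2 to 3. CDH11 encodes a cadherin of mesenchymal cells. The 8 intronic cadherin circles had 0 and 0 reads in irradiated libraries, against 15 and 11 in controls, at least 12.4-fold lower per junction read in irradiated libraries against the floor. For intronic circRNAs other than members the ratio per junction read was 0.391 (exact binomial 95% interval 0.372 to 0.411, counting error only), so they were lower too. That interval leaves out the spread between libraries, since all intronic circRNAs took 8.61% of the reads of B1 and 19% of those of B2. CDH23 and PCDH15, which form the tip links of hair cells, had 0 and 0 reads each in irradiated libraries, against 9 and 0 (CDH23) and 2 and 5 (PCDH15) in controls. CDH4 had 6 reads in A2 and CDH17, a cadherin of intestinal epithelium, had 4 reads in A1. PCDH19 had 4 reads in A2. PCDH11Y had 3 reads in B2 from a sense overlapping circle, and since it has a near-identical copy, PCDH11X, its assignment is uncertain. Apart from the CDH11 circle no cadherin or protocadherin circle was exonic, and both CDH4 circles lay in 1 intron of 488625 bases.

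**Figure D3:**
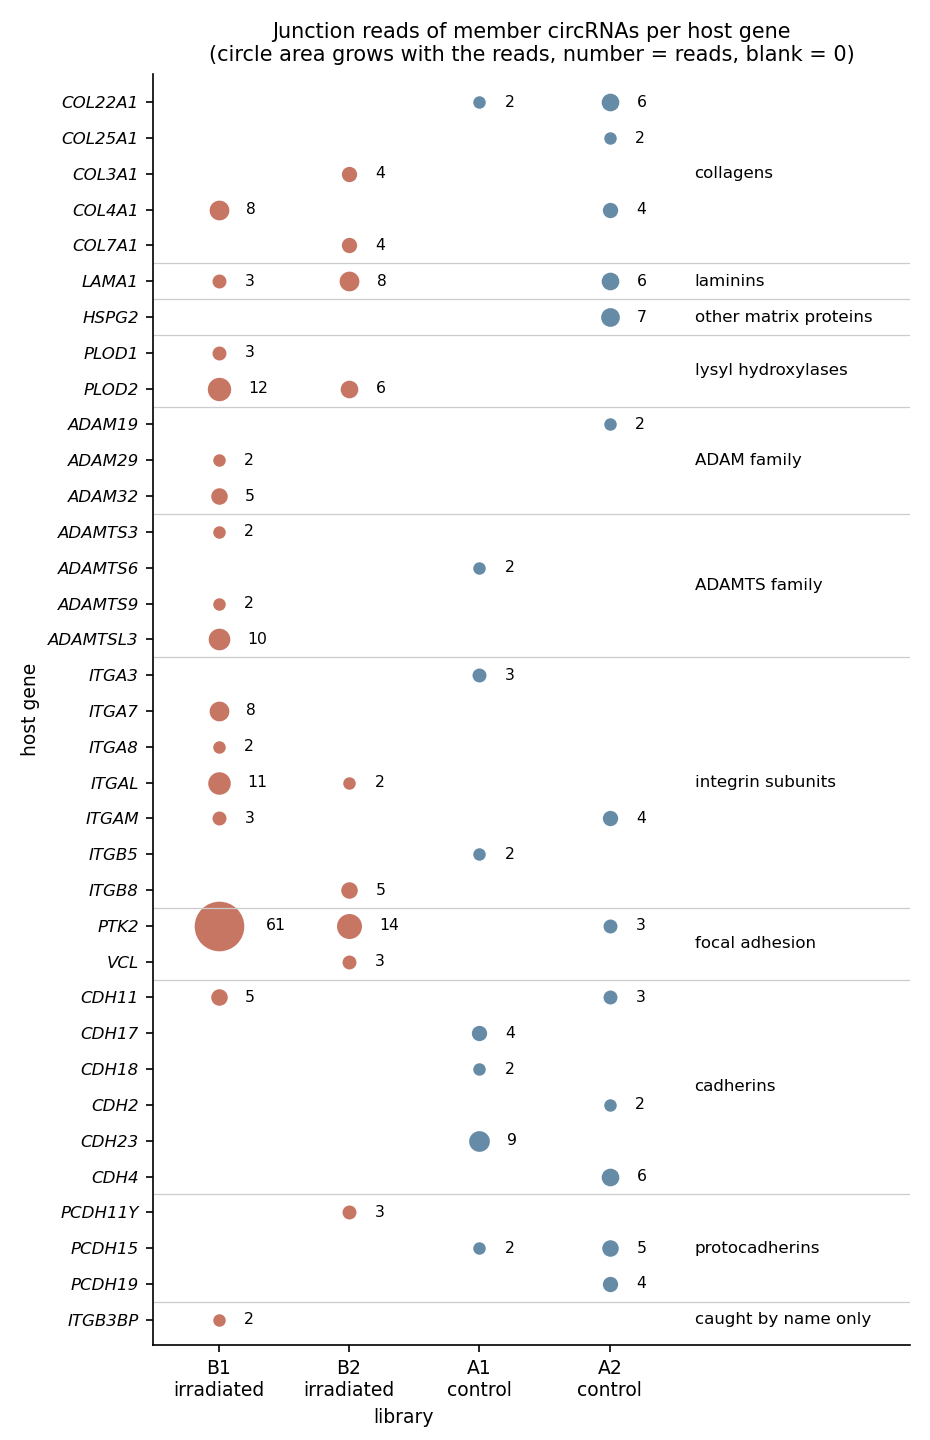
Junction reads of member circRNAs for each of the 35 hosts (rows, grouped by role) in irradiated libraries B1 and B2 and control libraries A1 and A2 (columns), where circle area grows with the reads. PTK2 stands out with 61 and 14 reads in B1 and B2, and 5 of 6 cadherin hosts were read in control libraries alone.

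One host, ITGB3BP, was taken by the start of its symbol but encodes a centromere protein, and had 2 reads in B1. Leaving it out moved the difference in the member share to 0.346 percentage points.

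With all 4 libraries, no member passed the test as a single circRNA. Of the 65 members, 21 had the 5 reads that were required for the fit. All of these were read in 1 group only, 18 (85.7%) in irradiated and 3 (14.3%) in control libraries. This is mostly the background of the fit. Of all 1957 circRNAs tested, 70.1% were read in irradiated libraries only, 28.3% in control libraries only and 33 in both groups. In edgeR's quasi-likelihood test 0 of the 21 had an adjusted p under 0.05 (Benjamini-Hochberg over 1957 circRNAs), against 0.102% of all circRNAs called higher and 0% called lower. At the study's thresholds, which take a fold over 2 with p under 0.05 before adjustment, it was also 0 of 21, against 3.53% of all called higher and 0.204% called lower. The smallest unadjusted p of a member was 0.174, for hsa_circ_0006646, with an adjusted p of 0.549. The likelihood ratio test in edgeR and DESeq2 also gave 0 members at an unadjusted p under 0.05. Without B2, the median log2 fold change of the 16 members tested lay 0.13 above that of all 1684 circRNAs, which was 5.92. That fit has a single irradiated library, which is assumed to vary like the controls. With features that had no read in a group set at their bound, the median log2 ratio of the 21 members was 0.49 and that of all 1957 circRNAs was 0.22.

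Summed per host, 16 of the 35 member hosts had 5 reads and were tested among 1504 hosts. None had an adjusted p under 0.05 in edgeR's quasi-likelihood test, where 1.2% of all hosts were called higher and 0.332% lower. At the study's thresholds 2 were higher, PTK2 and PLOD2, and 0 lower, against 9.44% and 1.13% of all hosts, so 2 of 16 is near the background. PTK2 had a log2 fold change of 4.09 ± 1.36 (SE worked back from edgeR's F statistic) with an edgeR p of 0.00269 and an adjusted p of 0.107. It was read in both irradiated libraries and in A2. Its log2 fold change was below the median of all hosts tested, 4.30. Without B2 it was 4.47, against a median of 5.13 over all hosts. Without A1 it was also below the median, 3.13 against 4.56. It was above the median without B1, 2.92 against 0.20, and without A2, where the median was 4.58. Its unadjusted p was 0.246 without B1 and 0.174 without A1, and its log2 fold change was 7.97 without A2, the library with its 3 intronic reads. PLOD2, with no control read, had an edgeR p of 0.0214 and an adjusted p of 0.292, and its unadjusted p lay between 0.087 and 0.341 when any library was left out. There were 5 hosts with reads in control libraries only (CDH23, COL22A1, PCDH15, HSPG2 and CDH4), and the smallest unadjusted p among them was 0.0907 for CDH23. Other hosts with reads in both groups had fold changes within their errors, which leave the direction undetermined. LAMA1 had a log2 fold change of 1.01 ± 1.76, COL4A1 of 0.29 ± 2.78, CDH11 of 0.05 ± 3.17 and ITGAM of -0.98 ± 3.52 (SE worked back likewise).

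The fold changes have to be read against a shift of the whole table. The median fitted log2 fold change was 4.30 over all 1504 hosts and 0.65 over the 16 member hosts. The gap of -3.65 rested on A2, since it was 0.26 without that library, where 11 member hosts were tested. The shift itself rested on B1, since without it the median was 0.20 over 507 hosts and -4.06 over 819 circRNAs, against 5 over all 1957 circRNAs with every library. With hosts that had no read in a group set at their bound, it was 0.67 over all hosts and 0.22 over the members. Of all hosts tested 71% were read in irradiated libraries only and 12.9% in control libraries only, against 37.5% and 31.2% of the member hosts.

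Genes of the same processes outside the name rule were looked at as a list of 130, among them other adhesion plaque, junction, proteoglycan and collagen-modifying genes. Of these 43 had a circRNA with a read, with 154 and 44 reads in irradiated libraries, against 17 and 18 in controls. Their exonic reads were 104 and 23 in irradiated libraries, against 1 and 0 in controls. Their other reads were 50 and 21 in irradiated libraries, against 16 and 18 in controls, or 0.33% and 0.365% of junction reads, against 0.244% and 0.222%. The exonic reads of the list thus stood in irradiated libraries, as those of the members did, while its other reads were a higher share in irradiated libraries and those of the members a lower one. Whether the lists differ was not tested. In the host test 19 had 5 reads, of which 1 was higher and 0 lower at the study's thresholds, and none had an adjusted p under 0.05. The one was FLNA, which crosslinks actin filaments, with 6 and 7 reads in irradiated libraries, against 0 and 0 in controls with an edgeR p of 0.0425 and an adjusted p of 0.426. The median fitted log2 fold change of the 19 was 4.09, near the 4.30 of all hosts, and 0.71 against 0.67 with hosts without a read in a group at their bound.

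The exonic members had a median predicted length of 505 bases, against 452 for the 2538 other exonic circles. From 500 to under 750 bases were 34.5% of members (others 18.5%), from 750 to under 1000 bases 3.45% (others 11.1%), and under 200 bases 0% (others 5.28%). From 200 to under 300 bases were 20.7% (others 20%) and 1000 bases or more 13.8% (others 14.5%). With 29 members the classes hold 0 to 10 circles each, and lengths were not tested. They held a median of 4 exons, with 1 exon in 1 circle, 2 exons in 8, from 3 to 5 exons in 11 and 6 or more in 9. Of the 29, 22 consisted of coding sequence alone, and 9 of these had a length that is a multiple of 3. The other 7 were partly coding, 6 of them the PTK2 circles from exon 3 and 1 the CDH11 circle. In circBase were 25 of 29 (86.2%, others 86.6%), and no intronic or sense overlapping member was. The introns on both sides were longer, with medians of 15071 bases before and 10853 bases after the circle, against 7743 and 6623 bases. This rested on PTK2. Its 12 circles had medians of 26262 and 14626 bases, while the 17 exonic members of other hosts had 6908 and 7550 bases. Circles of 1 host share introns, so they are not independent, and no test was made.

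**Figure D4:**
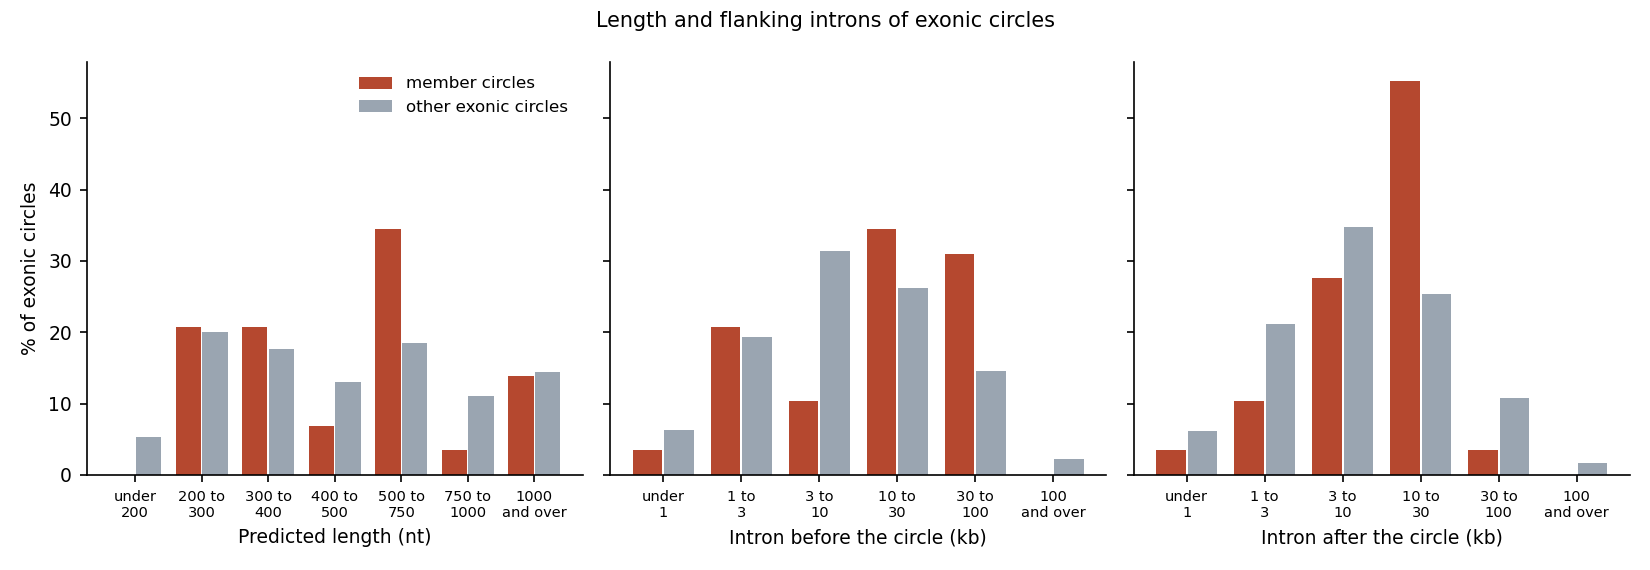
Percentage of exonic member circles (n = 29) and of other exonic circles by predicted length, by the intron before the circle and by the intron after it. From 500 to under 750 bases were 34.5% of members, against 18.5% of others, with 20.7% against 20% from 200 to under 300 bases, and 55.2% of members had a following intron of 10 to 30 kb, against 25.4% of others.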

How the data were processed

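Exosomal RNA depleted of rRNA was sequenced in 4 libraries with a stranded kit. Per the labels, the authors used Cutadapt 1.9.3 for trimming and STAR 2.5.1b for alignment to hg19, and the methods name DCC for calling back-splice junctions. The deposited counts give, for each circRNA, the raw junction reads of every library. The deposited log2 values, which the authors computed with edgeR, were not used. Columns were matched to samples by name, and 4 per-library columns (2 of junction reads) whose names match no sample title were not used. Column B2 was matched by name, but the study's spreadsheets name the second irradiated library differently and its summary lists another number of circRNAs for it, so B2 may be a further library.

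Members and gene lists were chosen with earlier results of these data known. Rows with 5 or more junction reads in all were fitted in edgeR 4.0.16 (R 4.3.3) with TMM factors of 0.325 (B1), 0.631 (B2), 2.3 (A1) and 2.12 (A2) for circRNAs, quasi-likelihood F tests and Benjamini-Hochberg adjustment over the whole table, and reads summed per host likewise. DESeq2 1.42.0 was an alternative. Shares carry Wilson intervals, and ratios per junction read exact binomial intervals or a bound against 3 counts over the group without a read. Library shares were compared with exact permutation tests (scipy 1.17.1). Junctions were read from GRCh37 with pysam 0.24.0 and exons from GENCODE release 44 lifted to GRCh37; all 2410 circBase circRNAs with a read had the splice motif on the listed strand, a check of the build. Named were the 15 most read members with ties, those in 2 libraries and the most read of each role, and hosts with at least 3 members or an unadjusted p under 0.05. Any other was named with its values known. The fits were also run on simulated counts. These varied less between libraries than the real counts, so that run cannot show how the fits perform here.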

Additional observations from a re-analysis of the deposited data

How the results depend on the processing

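No member circRNA had an adjusted p under 0.05 under any alternative that keeps all 4 libraries, where members were tested (filterByExpr kept none). When 1 library was left out, 1 group held a single library, so member circRNAs passing there are not counted. In those fits the median log2 fold change of members lay above that of all circRNAs tested. The gap was 10.43 without B1 (7 members tested), 0.13 without B2, 0.58 without A1 and 0.38 without A2. For hosts with at least 10 reads, PTK2 and PLOD2 had an edgeR adjusted p under 0.05, 0.0421 each. There 6 member hosts were tested among 504, and log2 fold changes were 3.98 (PTK2) and 6.17 (PLOD2), against a median of 5.2 over all. With filterByExpr, 1 of the 14 hosts tested was a member, PTK2, and it had an adjusted p under 0.05. At the study's thresholds the hosts called higher, 2 in all, were 0 with RLE size factors, with mapped reads as library sizes (the study's own, in doubt for B2) and with DESeq2, 1 with filterByExpr, and 0 to 1 with 1 library left out. Without scaling factors 1 was higher and 1 (CDH23) lower, and with the newer glmQLFit 3 were higher and 2 (COL22A1 and PCDH15) lower. The share of all hosts passing under these alternatives is not given, so the counts do not set the members apart. Scaling moved the whole table, whose median log2 fold change over circRNAs was 5 with TMM, 5.81 with RLE and 3.69 without scaling, and leaving out B1 turned it to -4.06 (819 circRNAs tested). With the replicate number as a block 0 hosts passed the study's thresholds, and PTK2 had an edgeR p of 0.33. Whether the numbers pair the samples cannot be told. The differences between replicates 1 and 2 correlated at r = 0.0105 over hosts and 0.00543 over circRNAs. However, only 242 of 1504 hosts and 33 of 1957 circRNAs were read in both groups. For the rest the difference in the group without a read is fixed, whatever the pairing. The share differences kept their direction under every alternative run. For exonic members, and for circBase members, which are all exonic, that direction was fixed, since the controls held 0 exonic member reads. The member share difference was 0.616 with circBase circRNAs alone, where intronic and sense overlapping members gave no value, and 0.243 over nuclear reads, and the intronic and sense overlapping difference was -0.434 there. Depth limits all of this, since 44 of 65 members had fewer than 5 reads.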

Other observations

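Antisense circRNAs at the same host names were not members. Of 39 listed, 26 had a read, with 41 and 9 reads in irradiated libraries, against 9 and 37 in controls, and the groups overlapped. Their ratio per junction read was 0.761 (exact binomial 95% interval 0.5 to 1.16, counting error only), and that of all antisense circRNAs was 0.519 (0.493 to 0.547). The most read were at PCDH19 with 10 reads in B1, COL4A1 with 9 reads in B1 and CDH18 with 7 reads in A2, named after their values were seen.

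Some members were read at the same coordinates on both strands. This was so for 5 of 65 members (7.69%) and for 684 of 9027 circRNAs of nuclear chromosomes (7.58%). The ITGA7 circle had 8 reads in B1 on its own strand and 2 on the other. A COL4A1 circle in the last exon of its transcript had 4 reads in B1 on its own strand and 9 on the other. hsa_circ_0005982 of PTK2 had 10 reads and 4 on the other strand, both in B1, and hsa_circ_0002162 had 5 and 2 in B1. The intronic CDH23 circle had 5 reads in A1 and 2 on the other strand. In each case the opposite reads stood in a library that also held the member.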
